A study of Rattus norvegicus with 9 samples.

Results

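The circadian clock genes described here were the 10 named transcripts *Arntl*, *Clock*, *Per1*, *Per2*, *Per3*, *Cry1*, *Cry2*, *Nr1d1*, *Dbp* and *Bhlhe40*, taken by symbol from a liver count table of 24496 genes. All 10 were present and all 10 passed the filter on low counts, among 11924 genes tested. The libraries came from 9 female Wistar rats, 1 liver each. All were put on western diet at an age of 10 weeks, lost their ovaries by surgery 6 weeks later and received degarelix, which blocks the receptor for gonadotropin-releasing hormone. Osmotic pumps then delivered follicle-stimulating hormone (FSH) at 6 µg per kg per day to 4 rats (labelled Degarelix + FSH, here the FSH group) and vehicle to 5 rats (labelled Degarelix-only, here the vehicle group). The rats had restricted portions for 12 days, then ate freely for 7 days, and at an age of 19 weeks were killed after 4 h without food. The labels do not give the hour of collection. Both groups lacked ovaries and had degarelix, so the comparison is of added FSH on that background, with no intact or untreated animals.

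The mammalian clock is a feedback loop of transcription. The proteins of *Clock* and *Arntl* (also called *Bmal1*) pair and switch on genes that carry E-boxes, among them the *Per* and *Cry* genes, whose proteins return to the nucleus and repress that pair. A second loop runs through *Nr1d1* (REV-ERBα), which represses *Arntl* at elements named ROREs, and *Dbp* activates output genes through D-boxes. In liver these transcripts swing over the day, with *Arntl* opposite in time to *Nr1d1* and *Dbp*, and the phase follows meals, glucocorticoids and body temperature as well as the brain's clock.

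Some elements of that circuit could be read in promoters of the members. RefSeq gave windows for 9 of the 10 (build GRCr8, a later assembly than the one the counts were made on). The 250 bases before each start were searched on both strands for the E-box CACGTG, the related E′-box CACGTT, the D-box TTATGTAA and the RORE spelled ANTNGGTCA. Read from the opposite strand, an E′-box appears as AACGTG. Matches were found in 5 members, *Arntl*, *Nr1d1*, *Per2*, *Cry2* and *Bhlhe40*, and the lines give all of these matches. *Clock*, *Per1*, *Per3* and *Dbp* held none of the 4 motifs in their windows. Capitals mark the match, and each line runs 5′ to 3′ on the gene's own strand.
Arntl, RORE, chr1:176766290-176766327, plus strand: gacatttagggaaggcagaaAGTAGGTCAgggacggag
Nr1d1, upstream start, E′-box, chr10:84231961-84232006, minus strand: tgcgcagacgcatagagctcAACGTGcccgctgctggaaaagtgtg
Nr1d1, downstream start, E-box, chr10:84229620-84229665, minus strand: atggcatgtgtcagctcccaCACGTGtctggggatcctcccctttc
Per2, D-box, chr9:99497158-99497205, minus strand: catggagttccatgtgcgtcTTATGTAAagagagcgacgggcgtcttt
Per2, E′-box, chr9:99497030-99497075, minus strand: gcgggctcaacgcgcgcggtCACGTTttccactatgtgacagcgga
Cry2, E′-box, chr3:98860624-98860669, minus strand: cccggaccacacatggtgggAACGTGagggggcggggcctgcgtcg
Bhlhe40, E-box, chr4:143174210-143174255, plus strand: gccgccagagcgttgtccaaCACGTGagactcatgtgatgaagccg

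The RORE of *Arntl*, where REV-ERBα is known to bind, began 18 bases before the start. *Per2* carried a D-box 192 bases and an E′-box 62 bases before its start. E-boxes were in windows of 2 members and E′-boxes in those of 3 members. Of 33469 promoter windows of the same length, 5.59% held the E-box, 4.07% the E′-box, 0.828% the D-box and 2.05% the RORE. These shares are per window, whereas the counts of members are per gene, and the 9 members had 11 windows. These matches of letters describe the windows and do not show that a site was bound in these livers.

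Library totals ran from 23430807 to 27008941 counts with FSH and from 19295580 to 28672439 counts with vehicle. Levels are given as CPM, counts scaled to library size, in which 1 read was worth 0.0353 to 0.0532 CPM. The hepatocyte markers *Alb*, *Apoa1*, *Ttr*, *Serpina1* and *Cyp2e1* were all abundant. FSH replicate 1 stood apart in its *Alb* level, at 208600 CPM, against 101300 to 170900 CPM in the other 8 livers. Summed markers of stellate cells, of which 4 of 4 were detected, ran from 125 to 157 CPM with FSH and from 173 to 221 CPM with vehicle. Most of that sum was *Col3a1*, at 101 to 129 CPM with FSH and 141 to 193 CPM with vehicle, while *Dcn*, *Lrat* and *Des* overlapped between the groups. Those of endothelium, 3 of 4 listed being analysed here, ran from 88.2 to 108 CPM with FSH and from 70.4 to 94.4 CPM with vehicle. Of these, *Clec4g* did not overlap, at 21.39 to 26.85 CPM with FSH and 12.44 to 19.46 CPM with vehicle (edgeR adjusted p = 0.190). *Stab2* and *Lyve1* overlapped between the groups. Kupffer cell markers, 4 of 4 detected, ran from 262 to 367 CPM with FSH and from 136 to 415 CPM with vehicle. Cholangiocyte markers, likewise 3 of 4, ran from 7.98 to 15.6 CPM with FSH and from 9.36 to 17.4 CPM with vehicle. No analysed marker was at 0. The part of these differences in the clock values was not tested, and in bulk liver fewer cells of a type cannot be told apart from less RNA per cell.

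None of the 10 clock genes rose or fell with FSH at a false discovery rate (FDR) of 0.05 in edgeR's quasi-likelihood test, a call made for 0.0335% of all genes tested. DESeq2 also called 0 of the 10, where it called 1.65% of the genes it adjusted. At an unadjusted p under 0.05 there were 3 members, against 11.6% of all genes. *Bhlhe40* was the 1 with a higher value, in a direction where 6.42% of all genes passed. *Cry2* and *Per2* were the 2 with lower values, where 5.14% did. In none of the 10 were the groups free of overlap. Only 4.11% of all genes had ranges that did not overlap, so 0 of 10 does not set the members apart. The median log2 fold change of the members was −0.23, beside 0.00 over all genes tested, and 7 of 10 had values below 0, beside 49.5% of all genes. The members share regulators and are not independent of each other.

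**Figure D1:**
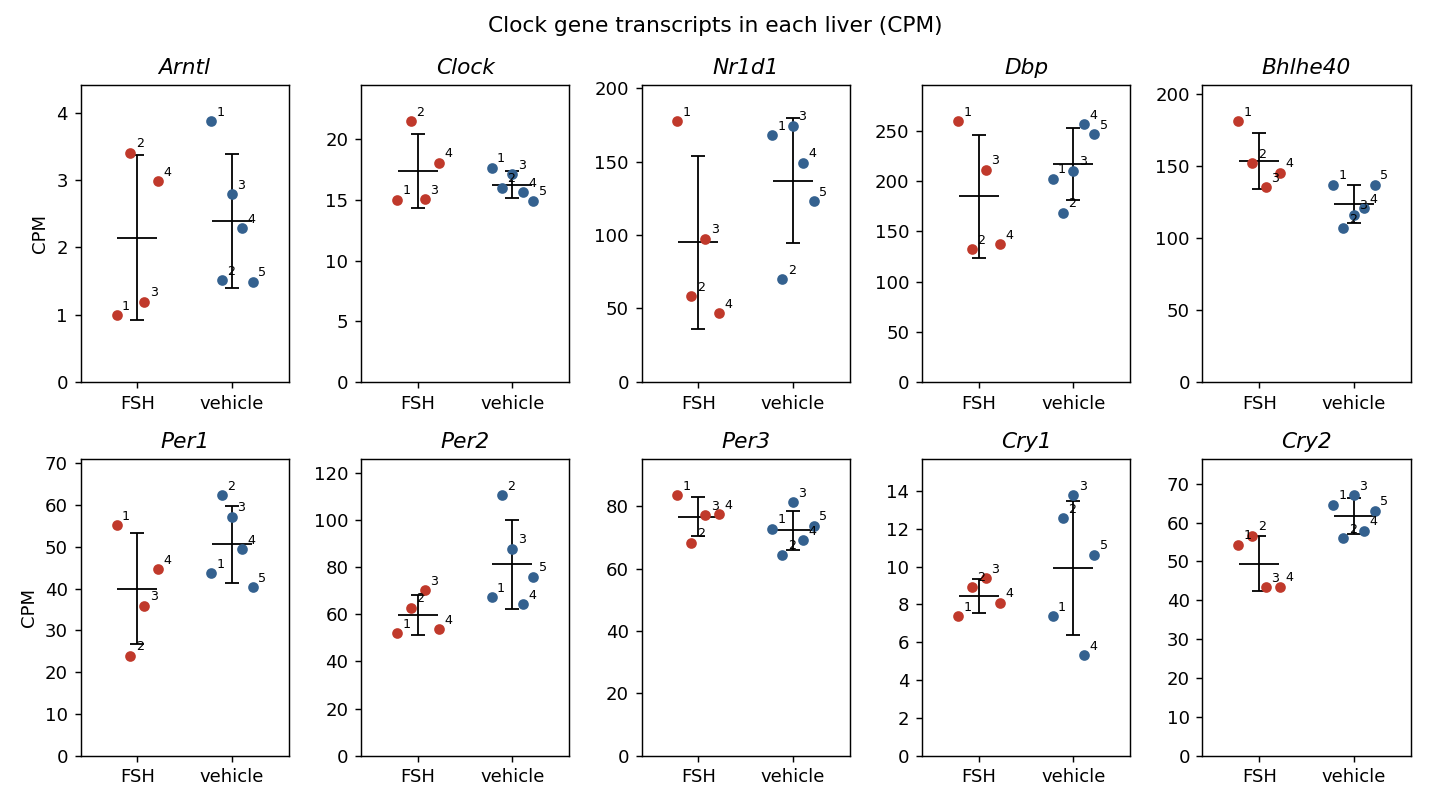
CPM of each clock gene in each liver, FSH to the left of vehicle, with points numbered by replicate and bars for the mean and SD (n = 4 and 5). In every panel the groups overlap; FSH livers 2 and 4 are the higher ones of their group in Arntl and the lower ones in Nr1d1 and Dbp.

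The activators *Arntl* and *Clock* did not differ by group beyond the spread. *Arntl*, the partner without which the loop stops, was at 0.993, 3.41, 1.20 and 2.98 CPM in FSH replicates 1 to 4, against 3.88, 1.51, 2.79, 2.29 and 1.49 CPM in vehicle replicates 1 to 5. FSH replicates 1 and 3 lay below every vehicle liver, while replicates 2 and 4 lay among the higher ones. On the log2 scale the change was −0.16 (edgeR adjusted p = 0.919, SE 0.41), and it turned positive, at 0.08, 0.04 and 0.07, without FSH replicate 1, FSH replicate 3 or vehicle replicate 1. Its 95% interval, −1.07 to 0.76, leaves changes of either sign possible. These values rest on 25 to 84 reads with FSH and 28 to 79 reads with vehicle. Counting error alone gave a 95% exact Poisson interval of 0.643 to 1.47 CPM in FSH replicate 1 and 2.72 to 4.22 CPM in FSH replicate 2, the lowest and the highest liver of that group.

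*Clock*, the histone acetyltransferase that pairs with the *Arntl* protein, was at 15.0, 21.5, 15.1 and 18.1 CPM with FSH and 17.7, 16.0, 17.1, 15.6 and 14.9 CPM with vehicle. FSH replicates 2 and 4 exceeded all vehicle livers, and replicates 1 and 3 lay at the low end of the vehicle range. Its log2 fold change of 0.10 had an SE of 0.11 (95% interval −0.15 to 0.35, edgeR adjusted p = 0.791), and was −0.02 without FSH replicate 2 and 0.16 without FSH replicate 1.

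*Nr1d1*, the repressor of *Arntl*, had the lowest fold change of the members and one of the widest spreads. It was at 177, 58.4, 97.3 and 46.8 CPM with FSH, against 168, 70.0, 175, 149 and 123 CPM with vehicle. FSH replicate 1 was the highest liver of all 9, whereas replicates 2 and 4 lay below every vehicle liver. FSH over vehicle gave a log2 value of −0.53 (95% interval −1.38 to 0.32, SE 0.38), with an edgeR adjusted p of 0.643. It was −1.02 without FSH replicate 1 and −0.30 without FSH replicate 4. The 3′ end of *Nr1d1* overlaps *Thra* on the opposite strand, and the strand setting of the counting is not given in the sources used here, so reads from that overlap are uncertain.

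*Dbp*, the activator that binds D-boxes, was at 259.6, 132, 211 and 137 CPM with FSH and 202, 169, 210.4, 257 and 247 CPM with vehicle. FSH replicate 1 was the highest of the 9 livers, replicate 3 lay within the vehicle range, and replicates 2 and 4 were below all vehicle livers. The difference, −0.23 in log2 fold change, had a 95% interval of −0.69 to 0.23 (SE 0.21, edgeR adjusted p = 0.717). It was −0.44 without FSH replicate 1 and −0.10 without FSH replicate 2.

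*Bhlhe40* (DEC1), a repressor that competes for E-boxes and responds to many stimuli, was the member with the highest fold change. It was at 181, 152, 135 and 145 CPM with FSH and 137, 107, 116, 120.5 and 137 CPM with vehicle. Of the 4 FSH livers 3 exceeded every vehicle liver, and the fourth lay just within the vehicle range. The means were 153 ± 19.6 CPM with FSH and 123 ± 13.3 CPM with vehicle (SD, n = 4 and 5). Its log2 fold change was 0.31 (SE 0.11, and 0.22 without FSH replicate 1), and with an edgeR adjusted p of 0.333 it did not pass.

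Among the period genes, whose proteins form the repressor complex with the cryptochromes, *Per2* had the lowest fold change. It was at 51.9, 62.9, 70.3 and 53.6 CPM with FSH, against 67.2, 111, 88.0, 64.2 and 76.0 CPM with vehicle. Of the FSH livers 3 lay below every vehicle liver. The means were 59.7 ± 8.57 CPM with FSH and 81.2 ± 18.9 CPM with vehicle (SD, n = 4 and 5). The log2 fold change reached −0.44 (edgeR adjusted p = 0.359, SE 0.16), and −0.31 without vehicle replicate 2, the highest liver.

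*Per1*, a period gene induced by glucocorticoids and cyclic AMP, was at 55.2, 23.9, 35.9 and 44.6 CPM with FSH and 43.7, 62.4, 57.2, 49.4 and 40.4 CPM with vehicle. FSH replicates 2 and 3 were below every vehicle liver and the other 2 were within the vehicle range. In log2 fold change this made −0.34 (edgeR adjusted p = 0.586, SE 0.22), with −0.54 without FSH replicate 1 and −0.17 without FSH replicate 2. *Per3*, a period gene that the loop can run without, was the least variable member, at 83.6, 68.3, 77.1 and 77.5 CPM with FSH and 72.8, 64.5, 81.3, 69.1 and 73.8 CPM with vehicle. The ranges overlapped widely (log2 fold change 0.08, SE 0.09, edgeR adjusted p = 0.757). Without FSH replicate 1 that change was 0.04.

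The cryptochromes repress the *Clock* and *Arntl* pair directly. *Cry2* had the smallest p-value of the 10 members. It was at 54.3, 56.7, 43.4 and 43.5 CPM with FSH, against 64.6, 56.1, 67.1, 57.9 and 63.1 CPM with vehicle. Of the FSH livers 3 lay below all vehicle livers, and FSH replicate 2 exceeded vehicle replicate 2 by a small margin. It averaged 49.5 ± 7.01 CPM with FSH and 61.7 ± 4.62 CPM with vehicle (SD, n = 4 and 5). The log2 fold change was −0.32 (SE 0.10), with an edgeR adjusted p of 0.307 and rank 370 by p among all genes tested, and it did not pass. *Cry1*, which in liver peaks later than the other repressors, was at 7.39, 8.93, 9.37 and 8.08 CPM with FSH and 7.39, 12.6, 13.8, 5.33 and 10.6 CPM with vehicle. All FSH livers lay inside the vehicle range (log2 fold change −0.24, SE 0.25, edgeR adjusted p = 0.759). That value ran from −0.40 without vehicle replicate 4 to −0.09 without vehicle replicate 3.

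**Figure D2:**
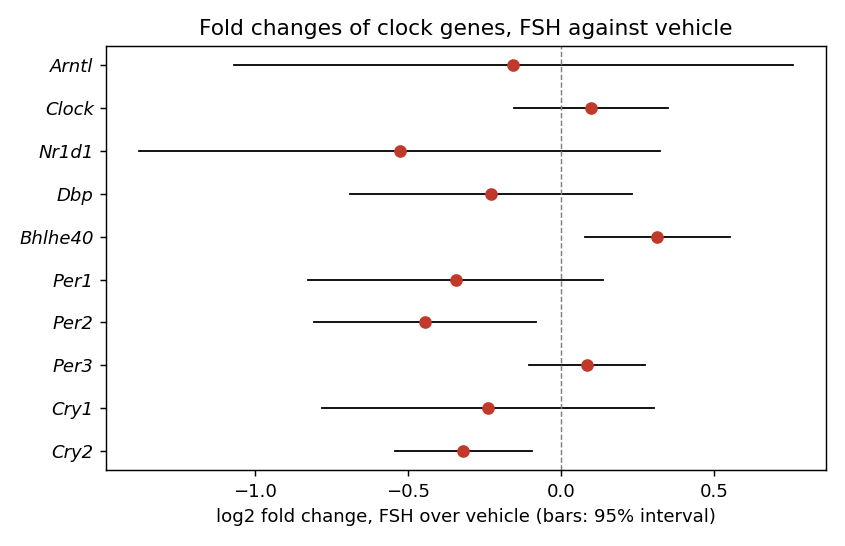
Log2 fold change of each clock gene, FSH over vehicle, from edgeR's quasi-likelihood fit, with unadjusted 95% intervals (4 FSH and 5 vehicle livers). The intervals of Bhlhe40, Per2 and Cry2 leave out 0 before adjustment for the number of genes, and those of Arntl and Nr1d1 are the widest.

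The clock genes differed widely in how much they varied between animals of a group. The median within-group SD of log2 CPM was 0.32 over the 10 members and 0.20 over all genes tested. *Arntl*, with a pooled SD of 0.71, and *Nr1d1*, with 0.69, exceeded 96.4% and 96.2% of all genes. The highest liver had 3.43 times the *Arntl* of the lowest with FSH and 2.60 times with vehicle, and for *Nr1d1* these ranges were 3.79-fold and 2.49-fold. Among 2133 genes at 0.5 to 2 times the mean level of *Arntl*, its SD exceeded 94.1%. *Per3*, at 0.12, *Cry2*, at 0.16, and *Bhlhe40*, at 0.17, varied less than the median gene, and *Clock*, at 0.18, also did. The FSH group had the larger SD in 7 of the 10 members, beside 44.7% of all genes. The median SD of the members went the other way, at 0.22 with FSH and 0.25 with vehicle. Over all genes these medians were 0.18 and 0.19. As with the fold changes, the members are not independent of each other. *Cry1*, *Per2* and *Per3* had the larger SD with vehicle, and for *Cry1* it was 0.15 with FSH and 0.57 with vehicle. No test of these differences in spread was made.

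**Figure D3:**
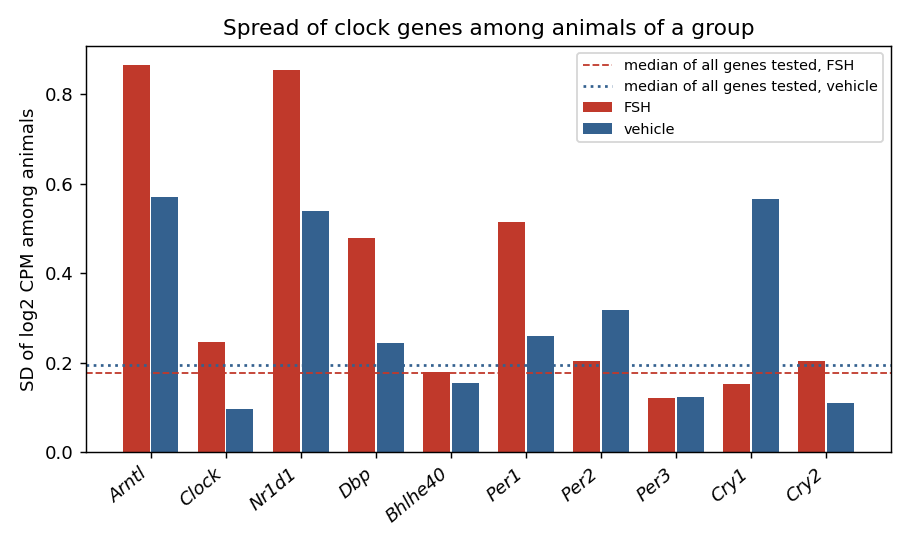
SD of log2 CPM among the 4 FSH and the 5 vehicle livers for each clock gene, with dashed and dotted lines for the medians of all genes tested. Arntl and Nr1d1 have the tallest bars in the FSH group, at 0.86 and 0.85, and Cry1 has 0.15 in the FSH group beside 0.57 in the vehicle group.

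The ratio of *Nr1d1* to *Arntl* reads within a library does not depend on scaling, and it set FSH livers at both ends. It was 179, 17.1, 81.4 and 15.7 in FSH replicates 1 to 4 and 43.4, 46.3, 62.5, 65.1 and 82.6 in vehicle replicates 1 to 5. FSH replicate 1 lay above all vehicle livers and replicates 2 and 4 below all of them. The ratio of *Dbp* to *Arntl* reads was 262, 38.8, 177 and 45.9 with FSH and 52.2, 111.5, 75.4, 112 and 166 with vehicle. Replicates 1 and 3 of the FSH group lay above, and replicates 2 and 4 below, every vehicle liver. Both ratios divide by the *Arntl* reads, only 25 and 31 in FSH replicates 1 and 3, so they are not independent. The ratio of *Cry1* to *Nr1d1* reads was 0.0417, 0.153, 0.0963 and 0.173 with FSH. Every FSH liver lay within the vehicle range of that ratio, 0.0357 to 0.179. Ratios of reads of genes of unlike length compare animals, not molecules.

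*Arntl* and its partner *Clock* varied together among animals. For log2 CPM centred on each group's mean, Pearson's r over the 9 livers was 0.90 (2-sided exact permutation within groups, 2880 arrangements, p = 0.00556, adjusted p = 0.05 over 9 relations). Spearman's rho was 0.97 (exact permutation p = 0.00139, adjusted p = 0.0125). Without FSH replicates 1 and 2, the livers farthest from the median of *Arntl*, r was 0.92 over 7 livers. Its exact permutation p was 0.0292, with an adjusted p of 0.2625, which did not pass. The adjusted p of Pearson's r sits on the threshold and lay between 0.0469 and 0.25 on leaving out 1 liver, while r stayed between 0.87 and 0.93; of these 9 fits it was at or under 0.05 only without vehicle replicate 2. Within a single group the 4 or 5 livers are too few for a correlation. Of 11923 other genes, 25 had a higher r with *Arntl* than *Clock* had.

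*Dbp* had the lowest of the 9 coefficients, with r = −0.67 (exact permutation p = 0.15, adjusted p = 0.673) and rho = −0.78 (exact permutation p = 0.108, adjusted p = 0.486), and did not pass. Its r was −0.41 without the same 2 livers and −0.93 without vehicle replicate 2 (adjusted p = 0.0469, exact permutation). The relation of *Nr1d1* to *Arntl* gave r = −0.32 and rho = −0.30 (exact permutation p = 0.496 and 0.4997, adjusted p = 0.739 and 0.735), and r was 0.15 without those 2 livers. In the FSH group the livers low in *Arntl* were high in *Nr1d1*. In the vehicle group the 3 livers with the most *Arntl*, replicates 1, 3 and 4, also had the most *Nr1d1*. Whether the groups differ in this was not tested. The remaining 6 members had r between −0.47 (*Per1*) and 0.24 (*Cry2*), with exact permutation p from 0.326 to 0.926 (adjusted 0.739 to 0.926), and rho from −0.45 (*Per1*) to 0.28 (*Cry2*), with exact permutation p from 0.339 to 0.957. Leaving out the 2 livers put them between −0.62 (*Per2*) and 0.46 (*Cry2*).

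**Figure D4:**
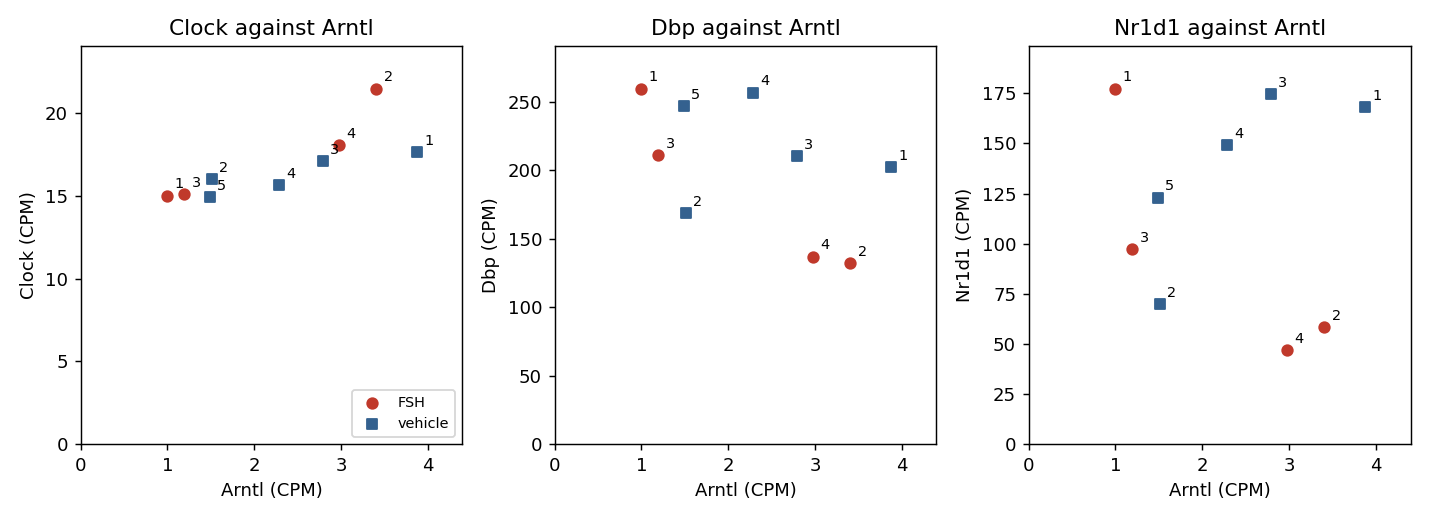
Clock, Dbp and Nr1d1 against Arntl in each liver (CPM on both axes), with FSH as circles and vehicle as squares, numbered by replicate. Clock climbs with Arntl over the 9 livers; for Nr1d1 the FSH livers low in Arntl (1 and 3) are the higher ones, and the vehicle livers high in Arntl (1, 3 and 4) are the higher ones.

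The genes most like *Arntl* across animals were sought among 8008 others at 5 CPM or more, by r of the same centred values over 9 livers. The 5 highest were *Atp5a1* (0.97), *Emc2* (0.96), *Dnajc1* (0.95), *Mrps23* (0.93) and *Aldh5a1* (0.93). The 5 lowest were *Map3k4* (−0.96), *Lin54* (−0.94), *Taf6* (−0.94), *Alas1* (−0.93) and *Zfp318* (−0.93). With 9 livers and so many genes, coefficients of this size are a description and carry no test. *Alas1*, the first enzyme of haem synthesis, also stands in the list of rhythmic output genes below.

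Genes around the loop gave no call either: 0 of 45 tested genes in 5 companion lists passed in edgeR at FDR 0.05, as did 0.0335% of all genes, and 0 passed in DESeq2 at that FDR. An unadjusted edgeR p under 0.05 was found for 5 of the 45, close to the share over all genes, 11.6%. In the list of further loop genes and output factors, 7 of 11 were tested, with 3 higher and 4 lower values and a median log2 fold change of −0.09. *Nfil3*, a repressor that opposes *Dbp* at D-boxes, had 0.52 (SE 0.21, edgeR adjusted p = 0.390) and 0.73 without vehicle replicate 3. *Rora*, which activates at ROREs, had 0.17 (SE 0.16), and 0.11 without FSH replicate 2. *Hlf*, a relative of *Dbp*, had −0.19 (SE 0.20), a value that lay between −0.31 (vehicle replicate 4 left out) and −0.01 (vehicle replicate 2 left out). *Rorb* was listed at 0 in every library, and *Arntl2* and *Bhlhe41* were too low to test.

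Of the 13 kinases, ubiquitin ligases and partners of clock proteins, all tested, 8 had lower and 5 higher values, with a median of −0.05. The deacetylase gene *Sirt1* stood at 0.25 in log2 fold change (edgeR adjusted p = 0.408, SE 0.11) and *Timeless*, which acts at replication forks, −0.52 (SE 0.23), and −0.27 without vehicle replicate 2. *Csnk1e*, a kinase that marks period proteins for breakdown, had −0.12 (SE 0.07). Of 14 rhythmic liver output genes 13 were tested, with 6 higher and 7 lower values and a median of −0.01. *Gys2*, the liver glycogen synthase, had 0.58 (SE 0.18, edgeR adjusted p = 0.288, DESeq2 adjusted p = 0.0972), the smallest edgeR adjusted p of the companion genes. *Nampt*, the rate-limiting enzyme of NAD salvage, had 0.67 (SE 0.35), and 0.34 without FSH replicate 3, and the deubiquitinase gene *Usp2* had −0.26 (SE 0.17), and −0.09 without vehicle replicate 2. *Elovl3* was listed at 0.

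The last lists held genes that answer to glucocorticoids and to body temperature, both cues of the liver clock. Glucocorticoid-responsive genes, 8 of 8 tested, split 4 higher and 4 lower, with a median log2 fold change of 0.04. *Tat*, tyrosine aminotransferase, was at 1296, 628, 735 and 1178 CPM with FSH and 1628, 3116, 1448, 1304 and 1343 CPM with vehicle. The groups did not overlap, though FSH replicate 1 and vehicle replicate 4 nearly met. In log2 fold change *Tat* had −0.88 (edgeR adjusted p = 0.340, DESeq2 adjusted p = 0.0993, SE 0.31), and −0.58 without vehicle replicate 2. *Fkbp5*, a co-chaperone of the glucocorticoid receptor, had 0.41 (SE 0.19) and *Tsc22d3*, which encodes GILZ, −0.41 (SE 0.24), and −0.16 without vehicle replicate 2. These targets lay on both sides of 0 and none passed. Of 5 temperature-responsive genes 4 were tested, with 1 higher and 3 lower values and a median of −0.10. The heat shock gene *Hsph1* had −0.73 (SE 0.28), and −0.38 without vehicle replicate 3. The cold-inducible *Rbm3* had −0.14 (SE 0.12) and *Cirbp* 0.11 (SE 0.13), and both depended on single animals, *Rbm3* having −0.23 without FSH replicate 1 and *Cirbp* 0.02 without vehicle replicate 2. *Hspa1b* was not analysed here.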

How the data were processed

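RNA from snap-frozen liver was sequenced as stranded paired-end libraries, 1 per rat, per the labels' protocols. The authors deposited whole-number read counts per gene, not normalised, in 1 column per library. STAR, edgeR, DESeq2 and rat build rn6 appear in the submitters' processing notes. No versions, gene models or strand setting of the counting are given in the sources used here. All 9 columns were matched to samples by label, and 0 were left unused. No library repeated another of its group (chi-square over degrees of freedom at least 25.9).

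Counts of 4 FSH and 5 vehicle livers were compared with edgeR 4.0.16 in R 4.3.3 (2-sided quasi-likelihood test, TMM scaling, low counts filtered by group, Benjamini-Hochberg over 11924 genes, FDR 0.05). The genes kept held 99.96% of counts. Standard errors are the fold change over the root of F. CPM use the same scaling, and log2 CPM a prior count of 2. The steps were tested on simulated counts, and their chance of calling changes as small as those of the members is not given here. Correlations used group-centred log2 CPM with exact permutation within groups in SciPy 1.17.1. Intervals of single counts cover counting error only. P-values of fold changes set the difference between groups against the spread among these animals. Those of correlations give the share of rearrangements with a coefficient at least as large in size.

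The members and the 5 companion lists were chosen with earlier results of these data known. Some genes of these lists are not reported here. Genes named by rule were all members, the 3 smallest p of each companion list and the genes most and least like *Arntl*. Cell type markers and genes that were not tested were named besides. Further companion genes under the other observations were picked after their values were seen. Alternatives were a replicate block, DESeq2 1.42.0, other size factors, total counts alone, other filters, FDR 0.10 and leaving out each animal. Promoter sequences are from RefSeq, build GRCr8. No coordinates are given for the deposited counts.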

Additional observations from a re-analysis of the deposited data

How the results depend on the processing

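No clock gene and no companion gene passed under a replicate block, DESeq2, edgeR with DESeq2-type size factors or library totals only, no filter, a filter of at least 1 CPM in at least 4 samples, edgeR at FDR 0.10 or the loss of any 1 animal. In DESeq2 the adjusted p of *Gys2* was 0.0972 and that of *Tat* 0.0993, under 0.10 but not under 0.05. The number of members with a value below 0 was 7 in all but the fits that left out 1 animal, where it ran from 6 to 8. No pairing of animals by replicate number is stated. Deviations of same-numbered livers correlated at −0.04 to 0.04 over all genes tested, and 0 of 4 FSH livers matched their own number best. A correlation over so many genes cannot exclude a pairing that shows in only a few, such as clock genes. With the replicate block, which leaves vehicle replicate 5 without weight, 0 members passed and 7 were lower, with *Cry2* at −0.32 (edgeR adjusted p = 0.471). On leaving out 1 animal the log2 fold change ran from −0.48 to 0.082 for *Arntl* and from −0.023 to 0.16 for *Clock*.

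The number of relations with *Arntl* past an adjusted exact permutation p of 0.05 was 1. It was 0 with size factors of DESeq2's kind, 0 with a prior count of 0.5, 0 without the 2 animals farthest in *Arntl*, 1 with Spearman's rho, and 0 to 2 on leaving out 1 animal. Weak coefficients changed sign: *Bhlhe40* was 0.033 as Spearman's rho, and without the 2 animals *Per1* was 0.13, *Per3* 0.37, *Nr1d1* 0.15 and *Bhlhe40* 0.39. On leaving out 1 animal, r ran from −0.46 to 0.16 for *Per3*, −0.62 to 0.080 for *Nr1d1*, −0.28 to 0.46 for *Bhlhe40* and −0.077 to 0.58 for *Cry2*; the cause was not tested. Depth limits *Arntl* most, at 25 to 84 reads.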

Other observations

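Some companion genes, chosen here after their values were seen, showed the division among FSH livers that *Arntl*, *Clock*, *Nr1d1* and *Dbp* had, with replicates 1 and 3 apart from 2 and 4. The share of all genes with this division was not counted, and it is not particular to clock genes. Further companion genes had it, in both directions: replicates 1 and 3 were the higher pair in *Gys2* and the lower pair in *Nfil3*, *Hlf* and *Rora*. *Nono* had it, at 91.6, 82.5, 88.3 and 80.1 CPM in FSH replicates 1 to 4. So did the cholangiocyte marker *Epcam*, at 7.51, 10.3, 7.25 and 14.3 CPM. *Noct*, *Usp2*, *Timeless* and *Npas2* lacked it. *Ciart*, a repressor of the *Clock* and *Arntl* pair, was at 5.88, 0.325, 2.16 and 0.259 CPM in FSH replicates 1 to 4 and 2.88, 2.38, 2.97, 5.25 and 3.35 CPM in vehicle replicates 1 to 5. FSH replicates 2 and 4 rest on 8 and 6 reads and lay far below every vehicle liver, and the highest FSH liver was 22.7 times the lowest. *Nr1d2*, the close relative of *Nr1d1*, was at 116, 73.9, 98.9 and 75.4 CPM with FSH and 95.9, 77.7, 103, 86.2 and 88.0 CPM with vehicle, again with replicates 2 and 4 lowest. *Tef*, a relative of *Dbp*, was at 118.5, 99.96, 118 and 87.9 CPM with FSH and 93.9, 122, 117, 115 and 114 CPM with vehicle.

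*Alas1*, a known target of *Dbp* and its relatives in mouse liver, had 308, 158, 308 and 200.2 CPM with FSH and 206, 461, 275, 257 and 358 CPM with vehicle. Its FSH livers fell into the same pairs, with replicates 1 and 3 above replicates 2 and 4. The vehicle livers did not follow *Dbp*: replicate 2 had the most *Alas1* of them and the least *Dbp*, at 169 CPM. The centred correlation with *Arntl* over the 9 livers, a description with no test, was −0.93 for *Alas1*, −0.84 for *Tef*, −0.74 for *Ciart* and −0.46 for *Nr1d2*. Other genes of the same loop list did not share this. *Hlf*, like *Tef* a relative of *Dbp*, had −0.04, *Nfil3* had 0.57 and *Rora* 0.62. The value for *Npas2*, which can stand in for *Clock*, was 0.05. *Npas2* averaged 0.884 ± 0.572 CPM in FSH livers and 1.07 ± 0.830 CPM in vehicle livers (SD, n = 4 and 5).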
